A study of Mus musculus with 25 samples.

Results

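Cd47 encodes a surface glycoprotein of T cells and most other cells. It signals "do not eat me" to phagocytes by binding SIRPα, and it is also a receptor for thrombospondin-1. Accessibility of 18 peaks at the mouse Cd47 locus is described here, out of 13527 peaks in the whole ATAC-Seq count table. A peak was taken as a Cd47 peak if the nearest start site of a protein-coding gene to its midpoint was that of Cd47 (ENSMUSG00000055447.21, GENCODE vM39), or if its midpoint lay in the gene body. The gene lies on the plus strand of chromosome 16 (GRCm39, 49620896 to 49735373). Most of its coding transcripts, 37 of 43, start at 49675697, and 1 long transcript sets the annotated gene start. Peaks are named by the distance of their midpoint from that main start. The locus was selected on measured values of these data. Its normalized counts had shown an intergenic peak, here the +81 kb peak (49755903 to 49757917), open in Sensitized compared with Naive cells and more open in N+P C5 than in Naive cells. Those 2 contrasts are therefore given as descriptions without a test. For the same reason the +81 kb peak itself is described and not tested wherever Naive, N+P C5 or Sensitized libraries are compared, or S+P C4 with N+P C1.

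ATAC-Seq reads open chromatin through the cuts of a transposase, and a distal open region between genes is often a candidate regulatory element. The nearest gene is a name only, and these data do not link a peak to a gene. All 25 libraries were T_FGS, CD8+ T cells of spleen and lymph nodes of female C57BL/6 mice of 8 to 12 weeks sorted with an OVA:Kb tetramer, so that they recognize an antigen carried by both skin graft and fetus. Naive mice (n = 3) had met neither. Sensitized mice (n = 4) had rejected a 2W-OVA.BALB/c skin graft at least 30 days before. N+P mice carried a pregnancy by a 2W-OVA.BALB/c male without an earlier graft, and S+P mice carried one after the graft was rejected, with cells taken on days 0 to 3 post-partum. C1 (N+P, n = 3) and C4 (S+P, n = 4) are PD1-negative cells, C5 (n = 3 in N+P, n = 4 in S+P) is PD1+CD73+, and C7 (S+P, n = 4) is PD1+CD73-. The labels name no PD1 or CD73 subset for Naive and Sensitized. Differences of a post-partum subset from these groups therefore cannot tell pregnancy from the choice of subset. Sorted subsets are mixtures, so a change in the share of cells with an open peak and a change within each cell cannot be told apart.

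Total counts in peaks ranged from 2430890 to 25419715 per library, and the 18 peaks held 16 to 5762 reads in any library. Promoter peaks were found for 5 of 8 CD8+ T cell marker genes, with summed normalized counts of 1303 to 1969 over all libraries. No promoter peak was found for any of the 3 CD4+ or regulatory T cell, 5 B cell, 5 myeloid, 2 NK cell and 2 erythroid markers. Sensitized replicates 3 and 4 stood apart from replicates 1 and 2, and both were nearest to the N+P C5 mean across all peaks (r = 0.973 and 0.955). S+P C4 replicate 1, the shallowest library, was also nearest to N+P C5 (r = 0.923). In all, 10 of 25 libraries were nearest to another group, and Sensitized replicate 1 was nearer to S+P C4 (r = 0.931) than to its own group (r = 0.868). At the Cd47 locus, Sensitized replicates 3 and 4 were both below replicates 1 and 2 in 13 of 18 peaks and both above them in 3. Differences of Cd47 peaks from Sensitized that are printed with a value are also given without Sensitized replicates 3 and 4.

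Sequences are shown for the distal +115 kb peak, downstream of the gene, and for the Cd47 promoter (GRCm39, plus strand). For the +115 kb peak a stretch of 300 bases is shown, at the start of the part shared by the group peak lists. For the promoter the 250 bases before the main start are shown. The +115 kb window was chosen after the hits were seen, so its content is no evidence of enrichment. It is not the stretch with the most kinds of searched strings. Between 49790936 and 49791203, also in the shared part, lie NFAT, GATA, AP-1, ETS and TCF/LEF strings. The stretches shown are chr16:49790218-49790517 and chr16:49675447-49675696. Capitals mark the matched strings. The promoter stretch overlaps exons of the noncoding RNAs Gm4633 and Gm56621 and no untranslated region of a coding gene.
+115 kb peak: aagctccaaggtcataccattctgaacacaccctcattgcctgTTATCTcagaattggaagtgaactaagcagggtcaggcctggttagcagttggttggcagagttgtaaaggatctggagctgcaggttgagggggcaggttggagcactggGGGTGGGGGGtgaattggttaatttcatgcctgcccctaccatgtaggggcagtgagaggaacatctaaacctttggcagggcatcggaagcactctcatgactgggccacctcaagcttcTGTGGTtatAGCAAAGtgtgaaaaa
Cd47 promoter: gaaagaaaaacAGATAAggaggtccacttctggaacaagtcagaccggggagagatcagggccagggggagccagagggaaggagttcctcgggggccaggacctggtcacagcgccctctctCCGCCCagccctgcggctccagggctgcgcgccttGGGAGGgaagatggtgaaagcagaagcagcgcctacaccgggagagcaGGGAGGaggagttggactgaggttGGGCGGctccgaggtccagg
The +115 kb stretch held 1 RUNX string (TGTGGT), 1 TCF/LEF string (CTTTGNT), 1 GATA string (AGATAA) and 2 overlapping KLF strings (GGGNGG). The promoter stretch held 4 KLF strings and 1 GATA string. Over 13526 windows of 300 bp at peak midpoints, searched on both strands, 24.3% held the RUNX string, 7.90% the GATA string, 17.4% the TCF/LEF string and 75.3% the KLF string. The other strings searched were ETS (AGGAAGT, 13.8% of windows), T-box (AGGTGT, 14.6%), CRE (TGACGTCA, 2.11%), AP-1 (TGANTCA, 9.20%), NFAT (TGGAAA, 18.1%), a longer ETS string (CCGGAAGT, 5.17%), a BATF-IRF composite that contains the AP-1 string (0.207%) and ISRE (4.27%), none of which is in the printed stretches. The whole +115 kb peak of 1697 bp did hold 1 AP-1, 4 NFAT, 1 ETS (AGGAAGT) and 1 T-box string. Of the windows outside promoters, 40.6% held the RUNX string. These shares are for windows at midpoints, whereas the printed +115 kb stretch was chosen after the hits were seen. They are therefore not comparable as rates. A match is a string of letters and does not show that a factor binds there.

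The +81 kb peak lay between genes, 21537 bp beyond the 3' end of Cd47. It was near closed in cells of mice that had never been grafted and open in every library of grafted mice. Its normalized counts were 55.1, 41.3 and 61.2 in Naive, 81.9, 71.8 and 77.2 in N+P C1, and 114, 122 and 148 in N+P C5. In Sensitized they were 1157, 1390, 389 and 502. S+P C4 gave 391, 793, 1157 and 906, S+P C5 gave 1047, 1537, 1321 and 1108, and S+P C7 gave 1260, 1524, 1634 and 1352. The 3 ungrafted groups did not overlap one another, and the highest of their libraries stayed below the lowest library of a grafted mouse. By mean the order ran from Naive through N+P C1, N+P C5, S+P C4, Sensitized and S+P C5 to S+P C7, and each neighbouring pair from S+P C4 upward overlapped. As a description, Sensitized exceeded Naive by 4.03 ± 0.34 (SE) on the log2 scale, and by 4.59 without Sensitized replicates 3 and 4. N+P C5 exceeded Naive by 1.28 ± 0.37. Across the locus, 12 of 18 peaks did not overlap between Sensitized and Naive, where 22.7% of all peaks did not. That contrast was used to choose the locus, and nothing is read from this share.

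**Figure D1:**
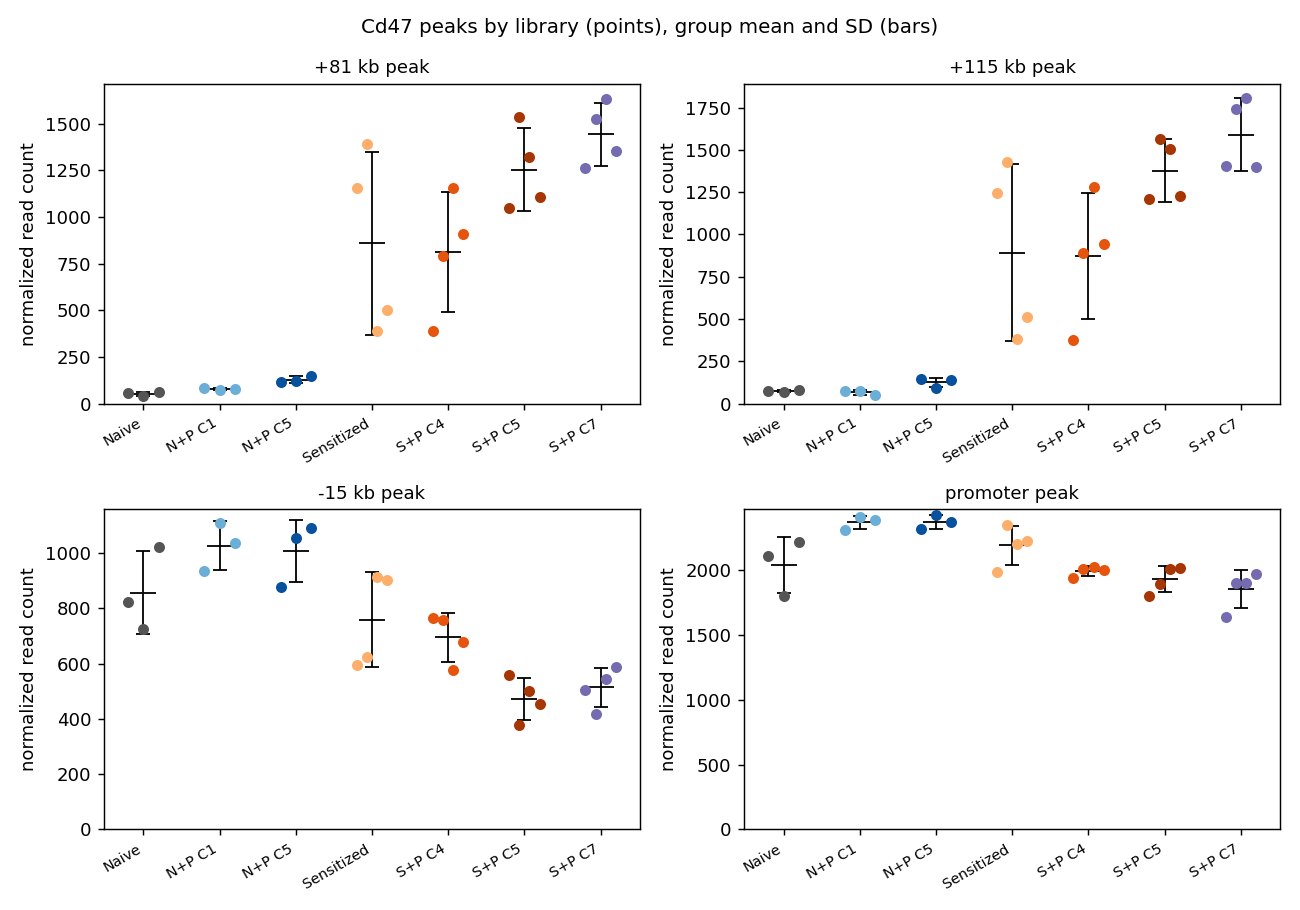
Normalized read counts (y axis, from 0) of the +81 kb, +115 kb, -15 kb and promoter peaks in each library (points), with group mean and SD (bars). The +81 kb and +115 kb peaks sit below 150 in ungrafted mice and above 370 in grafted mice, while the promoter peak stays between 1639 and 2431.

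The +115 kb peak (49789952 to 49791648), also between genes, took nearly the same course over the groups as the +81 kb peak. The counts were 70.8 to 78.9 in Naive, 49.0 to 77.4 in N+P C1 and 93.2 to 146 in N+P C5. In Sensitized they were 1246, 1430, 384 and 515, with replicates 3 and 4 again the lowest. S+P C4 ranged from 374 to 1282, S+P C5 from 1210 to 1566 and S+P C7 from 1400 to 1804. Over 25 libraries its log2 counts correlated with those of the +81 kb peak at r = 0.990, and the deviations from group means at r = 0.925. These libraries share depth and condition, so the correlation is a description. The +83 kb peak (49757963 to 49758644) starts 45 bp after the end of the +81 kb peak and is not independent of it. It held 40.3 to 83.6 in ungrafted and 133 to 478 in grafted mice.

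Whether sensitization before pregnancy was accompanied by other accessibility at the locus was asked by comparing post-partum subsets of grafted and ungrafted mice. Counts are over the 17 peaks other than the +81 kb peak. S+P C5 against N+P C5 gave 6 called peaks, 4 higher and 2 lower, at an adjusted p under 0.1 and a log2 fold change over 0.9 in size, where 17.2% of all peaks were called, 10.3% higher and 6.97% lower. With loess offsets this split over all peaks turned, from 1390 higher and 943 lower to 893 and 1145. None of the 4 higher peaks was in the deposited peak list of an ungrafted group, so they entered the count table through groups of grafted mice. Peaks of that kind had to be high there, so against ungrafted mice their differences are given as descriptions with no p, and their number is no support for a rise at the locus. The +115 kb peak, which also follows the chosen +81 kb peak, was higher in S+P C5 by 3.45 ± 0.39 (SE). The +83 kb peak next to the chosen peak was higher by 2.47 ± 0.35, or 1.77 with loess offsets. The +52 kb peak, in an exon of a Cd47 transcript, was higher by 2.31 ± 0.39 and the intronic +33 kb peak by 1.15 ± 0.23. The difference at the +52 kb peak, which held 24.0 to 40.3 normalized counts in N+P C5, was 0.01 with loess offsets and was then not called.

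The other 2 called peaks, intronic and before the main start, were lower in S+P C5, and both were listed in Naive, N+P C1 and N+P C5 as well as in S+P C5. The -36 kb peak held 507, 537 and 667 in N+P C5 and 317, 225, 249 and 261 in S+P C5, and the groups did not overlap. It changed by -1.11 ± 0.23 (adjusted p 1.26e-05). The -15 kb peak held 879, 1055 and 1091 in N+P C5 and 558, 377, 500 and 453 in S+P C5. It changed by -1.09 ± 0.17 (adjusted p 3.16e-09), again without overlap. The promoter peak passed the adjusted p in this contrast but not the fold threshold (-0.30 ± 0.07, adjusted p 0.000223), with 2318 to 2431 in N+P C5 and 1804 to 2021 in S+P C5.

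The remaining peaks before the main start were not called. The -85 kb peak, in an exon of the neighbouring gene Ift57, held 99.6 to 123 in N+P C5 and 153 to 269 in S+P C5. As a description it was higher in S+P C5 by 0.84 ± 0.34, and it was called without S+P C5 replicate 1 (0.96) or 4 (0.94) and with the replicate block (0.91). The -64 kb peak held 633 to 711 and 406 to 547, a difference of -0.55 ± 0.21 (adjusted p 0.0208), while the -63 kb peak overlapped (-0.18 ± 0.26, adjusted p 0.553). The -82 kb peak held 258 to 391 in ungrafted and 381 to 658 in grafted mice, and S+P C5 exceeded N+P C5 by 0.38 ± 0.16. The -80 kb peak held 243 to 411 in ungrafted and 374 to 785 in grafted mice, with a difference of 0.56 ± 0.19 in the same contrast. The intronic -48 kb peak ranged from 231 to 309 and from 271 to 592, and was higher in S+P C5 than in N+P C5 by 0.42 ± 0.17. These last 3 are descriptions too, since none was listed in an ungrafted group. The -89 kb peak, also in an exon of Ift57, was listed in N+P C5 but in no S+P group, so its difference is a description as well. It was lower in S+P C5 (144 to 193) than in N+P C5 (242 to 311) by a log2 fold change of -0.70 ± 0.20. With loess offsets it was -0.91 and then called, which is no support for a fall. The -58 kb peak overlapped between these groups, at 235 to 397 and 246 to 284 (0.32 ± 0.32).

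**Figure D2:**
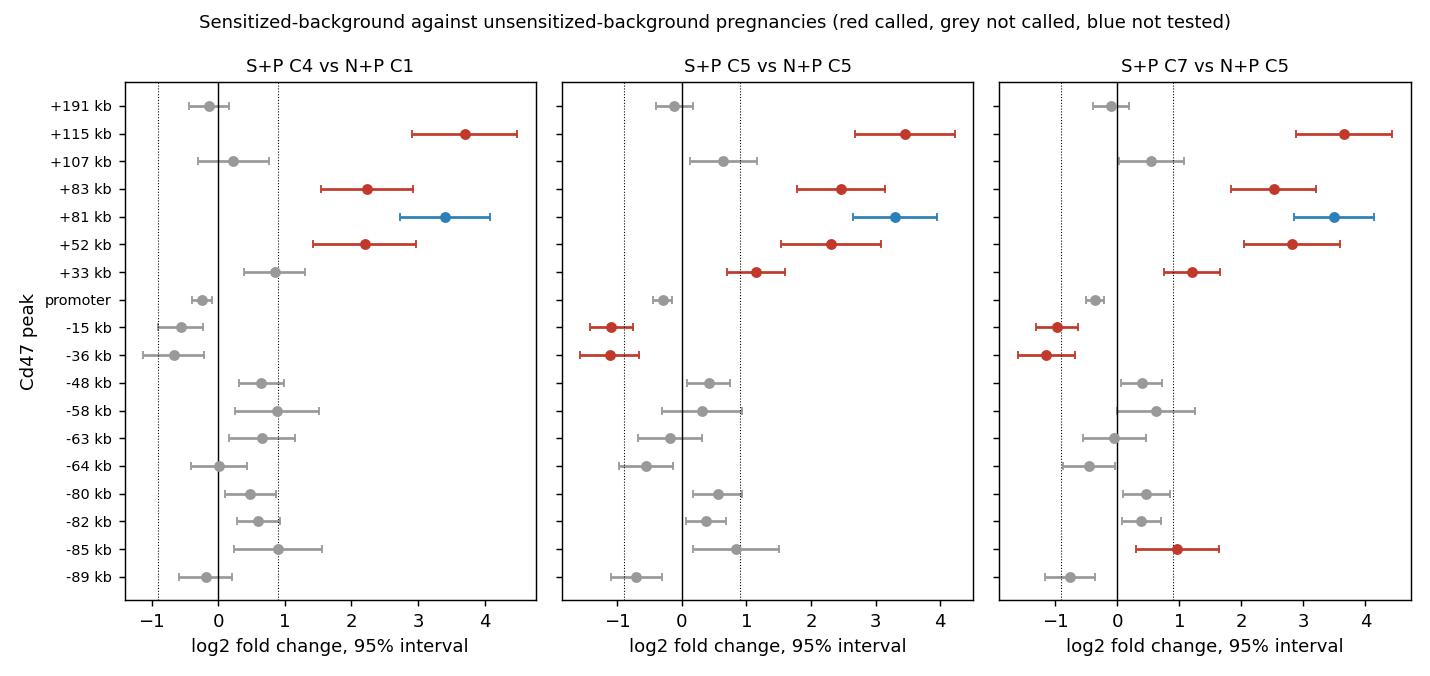
Log2 fold change with 95% interval (x axis) of each Cd47 peak (y axis) between post-partum subsets of grafted and ungrafted mice. Peaks past the call thresholds are red, others grey, and the +81 kb peak, which was not tested, is blue. Dotted lines mark a size of 0.9. The +52 kb, +81 kb, +83 kb and +115 kb peaks lie to the right, and the -36 kb and -15 kb peaks to the left, past the dotted line in all but S+P C4 against N+P C1.

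S+P C7 against N+P C5 gave 7 called peaks, 5 higher and 2 lower, where 22.0% of all peaks were called, 11.4% higher and 10.6% lower. Over all peaks these were 1543 higher and 1431 lower, and 1090 and 1619 with loess offsets. The calls were the 6 of S+P C5 and the -85 kb peak (0.97 ± 0.34), which was 0.88 without N+P C5 replicate 1, 0.75 without S+P C7 replicate 3 and 0.47 with loess offsets. The +52 kb peak was higher by 2.82 ± 0.39, but by 0.52 with loess offsets, where it was not called, and the +83 kb peak was higher by 2.52 ± 0.35, or 1.80 with those offsets. The -15 kb peak (-0.97 ± 0.17, adjusted p 1.05e-07) was -0.88 without S+P C7 replicate 2 and then under the fold threshold. Both contrasts share the N+P C5 libraries. Between the PD1-negative subsets, S+P C4 against N+P C1, 3 peaks were called, all higher, where 12.6% of all peaks were called and 9.62% called higher, 1301 of 1706 called peaks and 963 of 1760 with loess offsets. The +115 kb peak was higher by 3.70 ± 0.40 and the +52 kb peak by 2.202 ± 0.395, the latter 0.32 with loess offsets and then not called. At the +83 kb peak the difference was 2.23 ± 0.36, or 1.69 with loess offsets. No peak called higher against N+P C5 or N+P C1 was listed in an ungrafted group, the -85 kb peak included, so these differences are descriptions and the counts of higher peaks no support. The -36 kb and -15 kb peaks were -0.67 ± 0.23 and -0.57 ± 0.17, under the fold threshold. Leaving out S+P C4 replicate 1 or N+P C1 replicate 3 gave 6 calls, and leaving out N+P C1 replicate 2 or S+P C4 replicate 4 gave 5, through the -85 kb, -58 kb and, at 6, +33 kb peaks.

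The post-partum subsets of grafted mice were compared with Sensitized over the same 17 peaks, where pregnancy and the sorted subset change together. S+P C5 gave 2 called peaks, both lower, where 6.74% of all peaks were called and 3.67% called lower. The lower calls were 496 of 912, and 648 of 844 with loess offsets. Those at the locus were the intergenic -64 kb and -63 kb peaks, before the annotated gene start. The -64 kb peak held 957, 1063, 772 and 907 in Sensitized and 406, 412, 547 and 497 in S+P C5, without overlap. It changed by -0.99 ± 0.20 (adjusted p 1.91e-05), and by -1.11 without Sensitized replicates 3 and 4. The -63 kb peak held 475 to 712 in Sensitized and 262 to 393 in S+P C5, and changed by -0.99 ± 0.23 (adjusted p 0.000499), and by -1.16 without Sensitized replicates 3 and 4. It was -0.89 without Sensitized replicate 2 and then not called, while the +115 kb peak was called there at 0.95. Without Sensitized replicates 3 and 4 together, 4 peaks were called, with the -85 kb and -58 kb peaks added, while over all peaks the number fell to 439, 147 of them lower. The -85 kb peak was listed in Sensitized only and so entered the count table through the group where it is high. Its call is therefore no support.

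The +81 kb and +115 kb peaks had higher means in both PD1+ subsets of S+P mice than in Sensitized, and these differences rest on 2 libraries. As a description, the +81 kb peak differed by 0.54 ± 0.30 in the C5 subset and by 0.75 ± 0.30 in C7. Without Sensitized replicates 3 and 4 the same differences were -0.02 and 0.18. For the +115 kb peak, S+P C5 against Sensitized was 0.63 ± 0.36 (adjusted p 0.179), and 0.04 without those libraries. S+P C7 against Sensitized was 0.83 ± 0.36 (adjusted p 0.0452) at that peak, and 0.25 (adjusted p 0.554) without them. The +107 kb peak was not higher, at -0.25 ± 0.24 in S+P C5, and the difference in S+P C7 was -0.35 ± 0.24. Without Sensitized replicates 3 and 4 these were -0.62 (adjusted p 0.1) and -0.72 (adjusted p 0.0244). S+P C7 gave 0 called peaks of 17 against Sensitized in DESeq2, where 11.9% of all peaks were called. The -64 kb and -63 kb peaks were just under the fold threshold, at -0.89 and -0.85. Without Sensitized replicates 3 and 4 they were -1.02 (adjusted p 0.000385) and -1.03 (adjusted p 0.00303). Of the 17 peaks, 10 had an unadjusted p under 0.05, where 52.4% of all peaks had such a p, and edgeR called 1. With the replicate block 4 were called, the -64 kb, -63 kb and +52 kb peaks and the +115 kb peak at 1.03. The +52 kb peak was listed only in S+P C5 and S+P C7, so its calls over Sensitized, here and below, are no support. The count of called peaks was 2 without Sensitized replicate 1 or 2, through the +52 kb and +115 kb peaks. It was also 2 without Sensitized replicate 3, S+P C7 replicate 3 or 4, or both Sensitized replicates 3 and 4, through the -64 kb and -63 kb peaks.

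S+P C4 against Sensitized gave 0 called peaks in DESeq2, where 0.858% of all peaks were called. At an unadjusted p under 0.05 there were 2 of 17, where 18.7% of all peaks had such a p, and edgeR called 0. The +107 kb peak was lowest, at -0.78 ± 0.25 (adjusted p 0.0471), and it was called without S+P C4 replicate 3 (-0.92), Sensitized replicate 3 (-0.93) or Sensitized replicate 4 (-0.90). Without Sensitized replicates 3 and 4 together it was called at -1.15 (adjusted p 0.000551). As a description, the +81 kb peak differed by -0.08 (95% interval -0.66 to 0.51), and by -0.64 without both libraries. Leaving these out put the +115 kb and +83 kb peaks at -0.60 (adjusted p 0.206) and -0.76 (adjusted p 0.127).

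Among the S+P subsets, no peak passed both thresholds. The comparison of C7 with C5 had 0 called peaks, where 2.38% of all peaks were called, with 0 at an unadjusted p under 0.05 (18.4% of all peaks) and 0 in edgeR. The difference at the +81 kb peak was 0.20 (95% interval -0.38 to 0.79), so the interval spans both directions. At the +115 kb peak the difference was 0.20 with the replicate number as a block (adjusted p 0.628), and no peak was called with that block in C7 against C5 or in C5 against C4. C5 against C4 had 0 (5.12% of all peaks), with 7 at an unadjusted p under 0.05 (20.6% of all peaks) and 1 in edgeR. The nearest was the -63 kb peak at -0.88 ± 0.24 (adjusted p 0.00392), called without S+P C4 replicate 1, S+P C4 replicate 4 (-0.97) or S+P C5 replicate 3 (-1.04). C7 against C4 had 0 (7.73% of all peaks), with 7 at an unadjusted p under 0.05 (28.7% of all peaks) and 0 in edgeR. The +81 kb peak was 0.82 ± 0.30 there (adjusted p 0.0389) without overlap, and 1.04 without S+P C4 replicate 3, where it was called. The +115 kb peak was 0.86 ± 0.36 (adjusted p 0.0794). It was called with the replicate block (0.93), and without S+P C4 replicate 3 (1.10) or S+P C7 replicate 1 or 4 (0.91 each), and the -63 kb peak without S+P C7 replicate 3 (-0.99).

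In ungrafted mice no peak of the locus was called. N+P C1 against Naive gave 0, where 0.0205% of 4873 peaks were called, with 1 at an unadjusted p under 0.05 (19.0% of all peaks) and 0 in edgeR. The independent filter left an adjusted p for 4 of the 17 peaks tested. The promoter peak was higher by 0.21 ± 0.08 (adjusted p 0.0803), under the fold threshold. N+P C5 against N+P C1 gave 0, where 0.00% of all peaks were called, with 2 at an unadjusted p under 0.05 (2.28% of all peaks) and 0 in edgeR. Those 2 were the +115 kb peak (0.90 ± 0.43) and the -82 kb peak (0.36 ± 0.18), both with an adjusted p of 1.0. Because the +81 kb peak was chosen in part for its N+P C5 level and the +115 kb peak follows it, the +115 kb difference is no independent observation.

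The difference of S+P C5 from Sensitized was set against that of N+P C5 from Naive. In each of the pair, pregnancy and the sorted subset change together. Of 17 peaks 1 was called, where 5.97% of all peaks were called. The -15 kb peak gave -0.91 ± 0.24 (adjusted p 0.0055), at the fold threshold, and it was -0.59 without Sensitized replicates 3 and 4 (adjusted p 0.114), where the -64 kb and +107 kb peaks were called instead. Total counts (-0.87) and loess offsets (-0.86) put it under the fold threshold. So did leaving out N+P C5 replicate 2 (-0.88) or 3 (-0.85), Naive replicate 1 (-0.88) or 2 (-0.81), S+P C5 replicate 2 (-0.82) or 4 (-0.89), or Sensitized replicate 3 (-0.81) or 4 (-0.82). The number of called peaks was 3 if Naive replicate 3 was left out, and 2 if S+P C5 replicate 3, Sensitized replicate 2 or N+P C5 replicate 1 was. Over all peaks 807 were called, 1321 without Naive replicate 3, and 721, 902 and 878 without those other libraries in turn. The promoter peak gave -0.40 ± 0.10 (adjusted p 0.00479), under the fold threshold, and -0.38 (adjusted p 0.0496) without Sensitized replicates 3 and 4.

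Read per kb of peak, the +81 kb peak was far below the promoter in ungrafted mice and above it in S+P C7. This rests on the peak lengths, 2015 bp against 3534 bp at the promoter. In counts not divided by length the +81 kb peak stayed below the promoter in all groups, with a ratio of 0.687 to 0.858 in S+P C7 and 0.548 to 0.810 in S+P C5. The +81 kb peak held 26.1 ± 5.06 (SD) per kb in Naive and 63.5 ± 8.85 in N+P C5, against 578 ± 61.4 and 672 ± 16.025 at the promoter. In S+P C7 it held 716 ± 83.4 against 524 ± 41.4. The ratio of the peaks per kb was 0.0402 to 0.109 over the libraries of ungrafted mice, 0.309 to 1.04 in Sensitized, 0.354 to 1.00 in S+P C4, 0.961 to 1.42 in S+P C5 and 1.21 to 1.51 in S+P C7. The +191 kb peak, the farthest from the start, held 208 to 325 normalized counts in all 25 libraries.

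**Figure D3:**
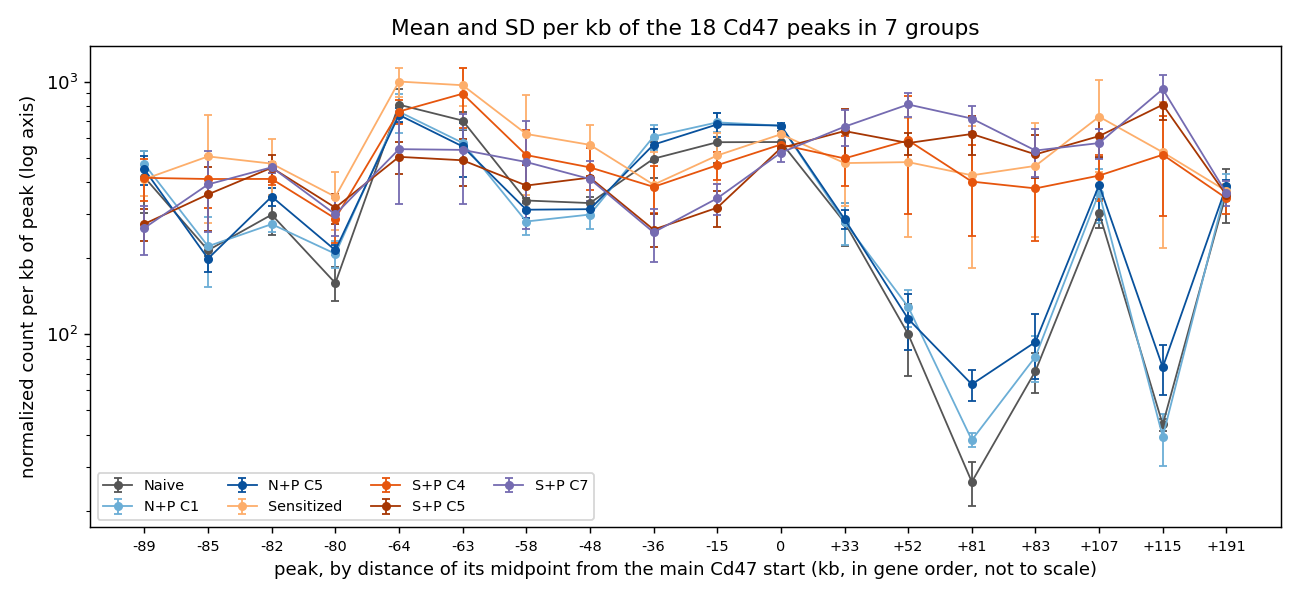
Mean and SD of the normalized count per kb of peak (y axis, log scale) of the 18 Cd47 peaks in gene order (x axis, not to scale), 1 line per group. The groups part at the +52 kb, +81 kb, +83 kb and +115 kb peaks and lie near one another at the promoter and the +191 kb peak, although all promoter counts of N+P C5 were above those of S+P C5.

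**Figure D4:**
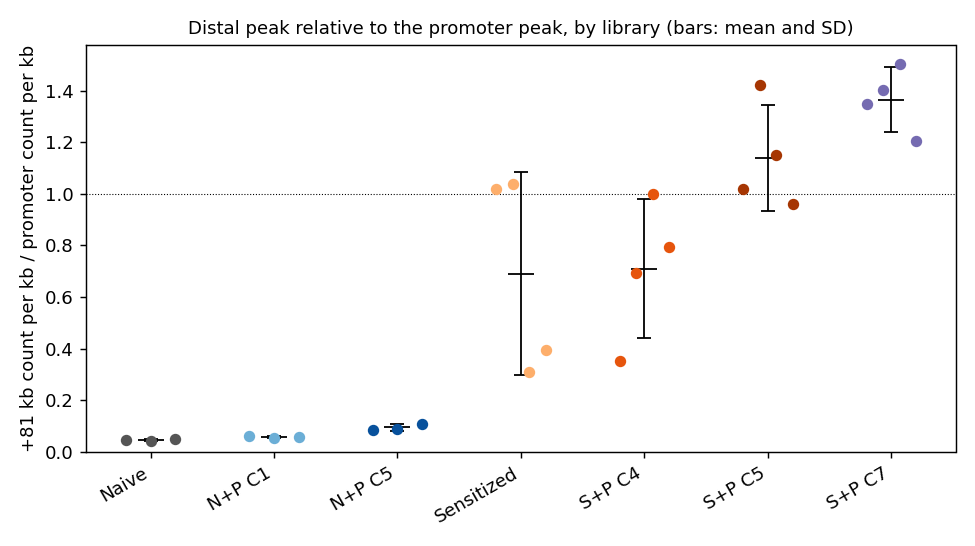
Ratio of the +81 kb peak to the promoter peak, both per kb (y axis, from 0), in each library (points) with group mean and SD (bars). All S+P C7 libraries lie above 1 and all libraries of ungrafted mice at or below 0.109.

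In the deposited peak lists, neither the +81 kb nor the +115 kb peak overlapped a listed peak of Naive, N+P C1 or N+P C5. The +115 kb peak was listed in all 4 grafted groups and the +81 kb peak in 3, all but S+P C7, where its count was highest. The promoter peak was listed in 6 groups, all but S+P C5. Of the 18 peaks, 5 were listed in each ungrafted group, 15 in Sensitized, and 4, 13 and 10 in the C4, C5 and C7 subsets of S+P mice, where the lists held 62.2% to 62.9%, 71.1%, 27.0%, 82.9% and 64.0% of all peaks.

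The peaks of other loci most like the +81 kb peak over 25 libraries were assigned to Srsf7 (r = 0.991), Il6st (0.990), Il10 (0.989), Atxn7l1 (0.988) and Lmnb1 (0.987). Such courses were common, as 5.66% of all peaks had r over 0.9. By rank correlation 2 of these 5 stayed among the leading 5, and by deviations from group means 0 did.

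Of 34 genes on a list of CD47 partners, ligands and regulators, 24 had a peak, 55 peaks in all. In S+P C5 against N+P C5, 9 were called higher and 2 lower (20.0%, against 17.2% of all peaks). They included a peak assigned to Ptpn11, the phosphatase SHP-2 that SIRPα recruits (3.69 ± 0.39). It held 33.7 to 44.3 in N+P C5 and 407 to 585 in S+P C5. Another, in an intron of the integrin gene Itga2 (4.71 ± 0.55), held 9.62 to 13.7 and 207.5 to 442.3. With so few counts in N+P C5, both are descriptions with no p, and their values with loess offsets are not given here. In S+P C7 against S+P C5 the promoter peak of Qpct, which encodes a glutaminyl cyclase, was lower (-1.07 ± 0.28, adjusted p 0.00654), from 116 to 203 in S+P C5 down to 49.4 to 108. Of 10 peaks of neighbouring genes within 1 Mb of the gene start, 0 were higher and 3 lower in S+P C5 against N+P C5, where 10.3% of all peaks were called higher and 6.97% lower. Of these, 1 was assigned to Ift57 (-1.07 ± 0.29) and 2 to Bbx (-0.92 ± 0.27 and -1.08 ± 0.28).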

How the data were processed

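Per the labels and the study's methods, the authors trimmed reads with cutadapt 3.4, aligned them to GRCm39 with Bowtie2 2.2.9, removed duplicates with Picard 2.21.8, called peaks with Genrich 0.6.1 in its ATAC mode, kept reproducible peaks per group with ChIP-R, merged them with bedtools 2.27.1 and counted reads with deepTools. The deposited table holds raw counts, not normalized. The deposited group peak lists pool libraries and hold a score, a signal, a p-value and a q-value per peak; only their positions were used here. Of the count columns, 0 belonged to no sample.

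DESeq2 1.42.0 (R 4.3.3) was fitted here once, to 25 libraries and with no covariate beside the group. Size factors were medians of ratios, and Wald tests were followed by Benjamini-Hochberg adjustment over all peaks. Calls needed an adjusted p under 0.1 and an unshrunken log2 fold change over 0.9 in size. edgeR 4.0.16 was an alternative, and the fits were tested on simulated data. Correlations used log2(normalized count + 1). Starts are 1-based. Every Cd47 peak is named; of the pathway list at most the 3 called peaks with the smallest adjusted p per comparison, and of the neighbours at most the 5 nearest. The members and lists were chosen with earlier results of these data known. The study's methods describe cell suspensions from individual mice, while the labels name no animal, so p-values measure the spread between these samples. Deviations of same-numbered libraries had r of 0.108 to 0.400 in N+P C1 and C5, 0.103 to 0.572 in S+P C4 and C5, and 0.522 to 0.771 in S+P C5 and C7. In S+P C4 and C7 they had 0.064 to 0.666, with 1 pair under 0.1. Differently numbered libraries of S+P C4 and C5 ranged from -0.685 (C4 replicate 3, C5 replicate 1) to 0.440 (C4 replicate 3, C5 replicate 2). The sequence of the +81 kb peak is not reported here. The +81 kb peak was also left out of the tests that use Naive, N+P C5 or Sensitized libraries, a choice made after its values were known.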

Additional observations from a re-analysis of the deposited data

Results flagged for a closer look

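The -63 kb peak of S+P C5 replicate 3 was far above the other libraries of its group, at 393 normalized counts against 262 to 276 in the others. Of 72 peak-by-group sets of 4 libraries examined this was the 1 that stood out, and chance flags about 1 in 20.

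The difference of post-partum C5 cells from cells without pregnancy was not the same in grafted and ungrafted mice at the -15 kb peak. It differed by -0.91 on the log2 scale, with pregnancy and the sorted subset changing together. Leaving out single libraries gave -1.06 to -0.81, and leaving out Sensitized replicates 3 and 4 gave -0.59.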

How the results depend on the processing

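The alternatives were edgeR with TMM, total counts as size factors, loess offsets, a mean count of at least 50 (which removed 0 peaks), the independent filter off, only the groups compared, an adjusted p under 0.05, a replicate block and leaving out each library. Leaving out Sensitized replicates 3 and 4 together was chosen after seeing the data. The numbers of called Cd47 peaks against N+P C5, and between N+P or Naive groups, stayed within 1.5 times under every alternative run. Of S+P C4 against N+P C1 there were 5 with edgeR, 5 with total counts and 3 to 6 without single libraries. Of S+P C4 against Sensitized there were 0 to 1 without single libraries and 1 without both Sensitized replicates. Of S+P C5 against Sensitized there were 2 without any single library and 4 without both. Of S+P C7 against Sensitized there were 1 with edgeR, 0 to 2 without single libraries and 2 without both. Of S+P C5 against S+P C4 there were 1 with edgeR, 1 with loess offsets and 0 to 1 without single libraries. The edgeR call was the -63 kb peak (-0.90), and the loess call was the +52 kb peak (-0.94, from -0.06 in the main fit). Of S+P C7 against S+P C4 there were 0 to 2 without single libraries. Of the interaction there were 0 with total counts, 0 with loess offsets, 0 to 3 without single libraries and 2 without both. The cause was not tested.

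With the replicate block, 4 peaks were called in S+P C7 against Sensitized and 1 in S+P C7 against S+P C4, the +115 kb peak at 0.93, and no other count moved by over 1.5 times. Sensitized and S+P animals share only a number. In S+P C4 against Sensitized the sign turned: the +81 kb peak, not tested, was 0.019 with the block and -0.32 to 0.26 without single libraries, and the +115 kb peak was 0.062 with the block, 0.012 with edgeR and -0.28 to 0.30 without single libraries. The +81 kb peak in S+P C5 against Sensitized was -0.022 without both Sensitized replicates, and 0.30 to 0.88 without single libraries. The description of the +81 kb peak moved from 4.03 to 3.70 to 4.27 in Sensitized against Naive and from 1.28 to 1.13 to 1.41 in N+P C5 against Naive without single libraries. The Cd47 peaks held 16 to 5762 reads in a library, and what depth limits was not tested.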
